A study of Mus musculus with 3 samples.

Results

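The 39 genes described here are cell cycle genes: 18 expressed around the G1/S boundary and during DNA synthesis, and 21 expressed in G2 and mitosis. They were matched by symbol in the gene column of the count table, and 39 of 39 were found among 31062 genes and transgenes. They were read in 8 brain samples of female C57Bl/6 mice aged 2 to 3 months, in which E0771 mammary carcinoma cells had been injected into the carotid artery. Some mice also received antibodies against VISTA and PD-L1 every other day from day 3 after the injection, and others did not. The brains were perfused with PBS and digested, and a Percoll gradient enriched the immune cells. The samples were stained with 35 antibodies, marked with 1 hashtag antibody each and pooled in 1 droplet capture (10x 3′ chemistry), so that transcripts, antibody tags and hashtags were counted on the same 12908 cell barcodes. The 3 deposited libraries are these 3 readouts of that capture. The sources used here neither link hashtags to the treatment nor say whether hashtags stand for separate animals. No treated group was therefore compared with an untreated one, values are given per hashtag sample, and p-values measure the spread between hashtag samples only.

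A cell that commits to division loads the MCM helicase (Mcm2 to Mcm7, with the loader Cdc6) on its replication origins, and cyclin E (Ccne1, Ccne2) with its kinase starts synthesis. Tyms, Rrm1 and Rrm2 then make deoxynucleotides, while Pcna clamps the polymerase to DNA, with Pclaf bound to it. After synthesis, cyclin A and B (Ccna2, Ccnb1, Ccnb2) activate Cdk1, Top2a untangles the chromosomes, and Aurka, Aurkb, Birc5, Bub1, Cenpe and Plk1 run the spindle and its checkpoint. Ube2c and Cdc20 belong to the machinery that then destroys cyclin B and securin (Pttg1). In a brain with metastases, tumour cells, activated lymphocytes, microglia and vessel cells can all divide, whereas mature neutrophils do not.

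The phase groups are tied to promoter elements, which are shown for 4 members. E2F factors bind G1/S promoters at GC-rich core sites, and the DREAM and MuvB complexes bind G2/M promoters at the cell cycle homology region (CHR), often beside CCAAT boxes bound by NF-Y. RefSeq promoters on GRCm38.p6, reaching from 250 bases before to 50 after the start, were at hand for 32 of 39 members, 2 of them with more than 1 listed start. Each was searched on both strands for the E2F core TTCCCGC and its variant forms TTGGCGC, or alternatively TTCGCGC, or in the last form TTGCCGC, for the CHR core TTTGAA and its variant form TTCGAA, and for the box CCAAT. The last CHR form reads alike on both strands and was counted once per place. An E2F core stood in 9 of 14 G1/S promoters (64.29%) and in 4 of 18 G2/M promoters (22.22%), against 9.69% of the 27025 promoters in the table. A CHR core stood in 2 of 14 (14.29%) and 14 of 18 (77.78%), against 19.44% of all. CCAAT stood in 10 of 14 (71.43%) and 16 of 18 (88.89%), against 37.92%, and CHR together with CCAAT in 14.29% and 77.78%, against 7.7%. These matches are letters in a window and not measured binding.

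The 250 bases before the start are printed for the 2 G1/S and 2 G2/M members with the most matches in the whole 300 bases, 5′ to 3′ on the gene's strand, with matches on either strand in capitals. Mcm3 was tied with Mcm5 and Mcm6 at 5 matches and Cdk1 with Hmmr at 7. All 4 lie on the minus strand: Mcm3 at chr1:20820313-20820562, Mcm7 at chr5:138171884-138172133, Top2a at chr11:99024190-99024439 and Cdk1 at chr10:69352913-69353162.
Mcm3: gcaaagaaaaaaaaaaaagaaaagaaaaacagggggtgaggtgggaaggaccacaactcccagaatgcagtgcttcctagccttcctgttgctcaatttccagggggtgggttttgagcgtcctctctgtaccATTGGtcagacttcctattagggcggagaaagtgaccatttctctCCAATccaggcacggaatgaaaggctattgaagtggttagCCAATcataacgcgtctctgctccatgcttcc
Mcm7: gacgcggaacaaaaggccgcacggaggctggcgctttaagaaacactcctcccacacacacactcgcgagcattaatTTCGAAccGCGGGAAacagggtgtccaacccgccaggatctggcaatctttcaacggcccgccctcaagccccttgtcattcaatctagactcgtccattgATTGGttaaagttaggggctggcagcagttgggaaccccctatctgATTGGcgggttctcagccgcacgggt
Top2a: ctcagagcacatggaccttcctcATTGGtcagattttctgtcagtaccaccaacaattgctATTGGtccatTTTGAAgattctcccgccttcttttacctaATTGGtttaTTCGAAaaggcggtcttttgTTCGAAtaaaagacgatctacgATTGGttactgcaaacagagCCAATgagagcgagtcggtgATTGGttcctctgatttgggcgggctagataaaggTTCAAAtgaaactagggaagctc
Cdk1: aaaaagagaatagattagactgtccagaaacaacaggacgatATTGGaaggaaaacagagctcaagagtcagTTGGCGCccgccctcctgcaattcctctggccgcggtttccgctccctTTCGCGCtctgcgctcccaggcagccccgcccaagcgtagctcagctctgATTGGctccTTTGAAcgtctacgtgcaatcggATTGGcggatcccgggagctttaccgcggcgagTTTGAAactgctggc
The Top2a stretch held 4 CHR cores and 6 CCAAT boxes and no E2F core. The Cdk1 stretch held 2 E2F cores, 2 CHR cores and 3 CCAAT boxes. The Mcm7 stretch held 1 E2F core, 1 CHR core and 2 CCAAT boxes. The Mcm3 stretch held 3 CCAAT boxes, and the 2 E2F cores of that promoter lay after the start.

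After filters on genes and mitochondrial UMIs (unique transcript molecules), 12334 barcodes remained, of which 9896 carried 1 hashtag, 1712 carried several and 726 carried none. The samples held 100 to 2316 singlets with medians of 11244.5 to 67341 UMIs. Marker UMIs placed 8047 singlets in 15 gates. The largest held 4474 cells with Krt8 and little Ptprc. Krt8 was the only one of 10 carcinoma markers detected in at least 10% of them, so they are called Krt8+ cells here and not carcinoma cells. The others held 696 macrophages, 626 inflammatory monocytes, 433 microglia, 415 NK, 391 endothelial, 383 CD8 T, 170 immature dendritic, 145 conventional CD4 T, 105 regulatory T, 70 neutrophil, 68 mature dendritic, 34 plasmacytoid dendritic, 32 mural and 5 choroid plexus cells. Tags followed the gates. CD8a made up a median of 4.66% of antibody counts on CD8 T cells and 0.0798% on NK cells, and CD4 made up 12.8% on conventional CD4 T cells and 0.162% on CD8 T cells. CD45 made up 2.60% on Krt8+ cells and 64.4% on NK cells, and TMEM119 was low on all gates (0.160% on microglia).

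RNA of Krt8+ cells was present in other gates. Rhox5, a homeobox gene of the Krt8+ cells chosen as a measure of their RNA after its values were seen, stood at 2.26 (immature dendritic) to 5.89% (mature dendritic) of its Krt8+ level in the 11 other gates of over 60 cells. Cells of the lymphoid gates ranged from 3.82% in NK to 4.57% in conventional CD4 T cells, and microglia were at 2.73%. Its part in the member levels was not tested. The values that bear on it are given beside the results below.

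Krt8+ cells had the largest share of dividing cells by these genes, followed by regulatory, CD8 and conventional CD4 T cells. Every cell was thinned to 2000 UMIs, so that deep and shallow cells could be compared, and called dividing with at least 2 UMIs of the G2/M members or at least 3 of the G1/S members. By this rule 71.3% of Krt8+ cells (95% Clopper-Pearson interval 70.0 to 72.6, counting error only) were dividing. The shares were 40% (30.6 to 50.02) of regulatory T, 34.9% (30.1 to 39.9) of CD8 T, 32.4% (24.8 to 40.8) of conventional CD4 T and 20.2% (16.4 to 24.4) of NK cells. Among myeloid cells they were 24.8% (20.8 to 29.2) of microglia, 17.6% (12.1 to 24.3) of immature dendritic cells, 12.2% (9.87 to 14.9) of macrophages and 8.24% (6.20 to 10.7) of monocytes. Endothelial cells stood at 21.3% (17.3 to 25.8).

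A pair of types was taken as background, neutrophils at 28.6% (17.9 to 41.3) and mature dendritic cells at 7.94% (2.63 to 17.6). Their median depths before thinning were 2964 and 7447 UMIs, against 6021 for CD8 T cells and 7935 for microglia. The neutrophil interval overlapped those of all 4 lymphocyte gates and of microglia. In dividing neutrophils 25.3% of member UMIs were Pttg1, in dividing monocytes 30%. Stmn1, which destabilises microtubules and is also used outside division, gave 25.6% in dividing endothelial cells. Cenpa, the histone variant of centromeres, gave 21.2% in dividing NK cells. Without Pttg1, Cenpa and Stmn1, a choice made after their values were seen, 36 members remained. The shares were then 67.3% (65.9 to 68.7) for Krt8+, 26.7% (18.5 to 36.2) for regulatory T, 21% (17.02 to 25.4) for CD8 T and 18% (14.4 to 22.0) for microglia. They were 14.3% (6.75 to 25.4) for neutrophils, 11.5% (7.08 to 17.4) for immature dendritic, 11.3% (6.58 to 17.7) for conventional CD4 T, 8.37% (5.87 to 11.5) for NK and 7.63% (5.17 to 10.8) for endothelial cells. Macrophages (5.16%, 3.62 to 7.11), mature dendritic cells (4.76%, 0.993 to 13.3) and monocytes (2.42%, 1.36 to 3.97) were lowest. The intervals of regulatory T cells, CD8 T cells and microglia lay above that of mature dendritic cells and overlapped that of neutrophils, while Krt8+ cells lay above both.

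Many cells sat near the rule's edge. Among CD8 T cells 57 were exactly at it and 120 were 1 UMI below, among microglia 39 and 108, and among Krt8+ cells 428 and 560. Of the 51 monocytes called dividing 44 were exactly at it, and of 83 such macrophages 56 were. Without thinning the rule called 99.9% of Krt8+ cells, which had a median of 84669 UMIs, 78.1% of CD8 T cells and 42.9% of neutrophils. Between 0 and 18 cells of a type fell short of 2000 UMIs and were left out. Cells dividing by the 36 members differed in depth before thinning from the other cells of their type. Medians were 10195 against 5502 UMIs in CD8 T cells, 13994.5 against 7641 in microglia and 15206 against 5298 in regulatory T cells. They were 25045 against 13125 in macrophages and 19940 against 10038.5 in immature dendritic cells. In endothelial cells they were 35780 against 5825, and 20 of 29 dividing cells held over 30000 UMIs. The other way, they were 3837.5 against 4239 in NK cells, 8210 against 9494.5 in monocytes and 6381 against 7550 in mature dendritic cells. Rhox5 of the cells dividing by the 36 members stood at 3.51% of the Krt8+ level against 4.34% in other CD8 T cells, at 1.5 against 6.42% in regulatory T cells and at 2.50 against 2.63% in macrophages. It was higher in the dividing cells of microglia (3.65 against 2.35%), conventional CD4 T cells (4.92 against 4.53%), neutrophils (17.3 against 1.48%, with 9 dividing cells) and mature dendritic cells (8.29 against 5.88%, with 3 dividing cells).

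**Figure D1:**
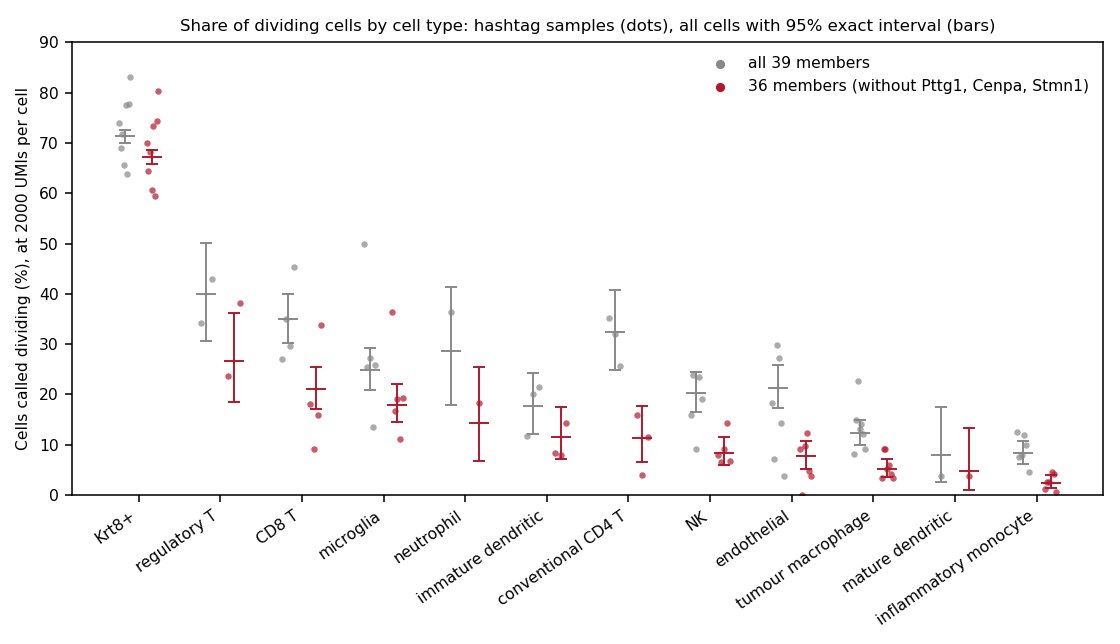
Percent of cells called dividing after thinning to 2000 UMIs, for the 12 cell types with enough cells. Points are hashtag samples with at least 20 cells of the type, and bars are the pooled share with its 95% Clopper-Pearson interval. Grey is for all members and red for the 36 members without Pttg1, Cenpa and Stmn1. By all 39 members Krt8+ cells stand apart at 71.3%, and neutrophils, taken as a background type, sit at 28.6%.

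The shares varied between samples. In Krt8+ cells of samples 1 to 8 they were 74, 69.0, 71.8, 65.6, 77.6, 63.8, 77.7 and 83.2%. Sample 8 was highest and sample 6 lowest, and every Krt8+ value lay above every value of the other types with at least 20 cells. In CD8 T cells of samples 5 to 8 the shares were 27, 35.1, 29.5 and 45.3%, and by the 36 members 18, 9.09, 15.9 and 33.8%. Sample 8 was the highest by both. In microglia of samples 3, 5, 6, 7 and 8 they were 50, 25.4, 27.3, 13.6 and 25.8%, with sample 3, which held few cells, at the top. Regulatory T cells had 34.2% in sample 5 and 42.9% in sample 8. NK cells of samples 2, 5, 6, 7 and 8 had 15.8, 23.7, 9.09, 23.4 and 19.0%. Macrophages ranged from 8.20 to 22.7% (median 13.1%, 7 samples) and monocytes from 4.49 to 12.5% (median 8.90%, 6 samples), so these overlapped.

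Most members ordered the cell types alike, and a few did not. Over the 12 types with enough cells, each member's level was ranked against the summed level of the other members (the sum again without Pttg1, Cenpa and Stmn1), a description over points that share 1 capture. Mcm5, a helicase subunit, Birc5, the survivin subunit of the chromosomal passenger complex, and Cdc20, an activator of the anaphase-promoting complex, followed the sum at a Spearman rho of 0.99, and Top2a at 0.98. Pttg1 followed it least, at 0.20, followed by Pcna (0.62), Dtl (0.70), the substrate receptor of a ubiquitin ligase active at replication, Mcm6 (0.76) and Cenpa (0.77). Pttg1 was highest in neutrophils (162.5 CPM, the gene's UMIs scaled by all UMIs, over all singlets of the type) and lowest in microglia (70.8 CPM). Stmn1 was highest in endothelial cells at 403 CPM. Of the 39 members 22 were highest in Krt8+ cells, 12 in regulatory T cells, 2 in CD8 T cells and 1 each in microglia (Pbk), endothelial cells and neutrophils. These levels are sums over all singlets, in which deep cells weigh more. Regulatory T cells were 105, with at least 20 in samples 5 and 8 only, and 4 of their 42 dividing cells held over 30000 UMIs. Whether their rank holds by sample was not tested.

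**Figure D2:**
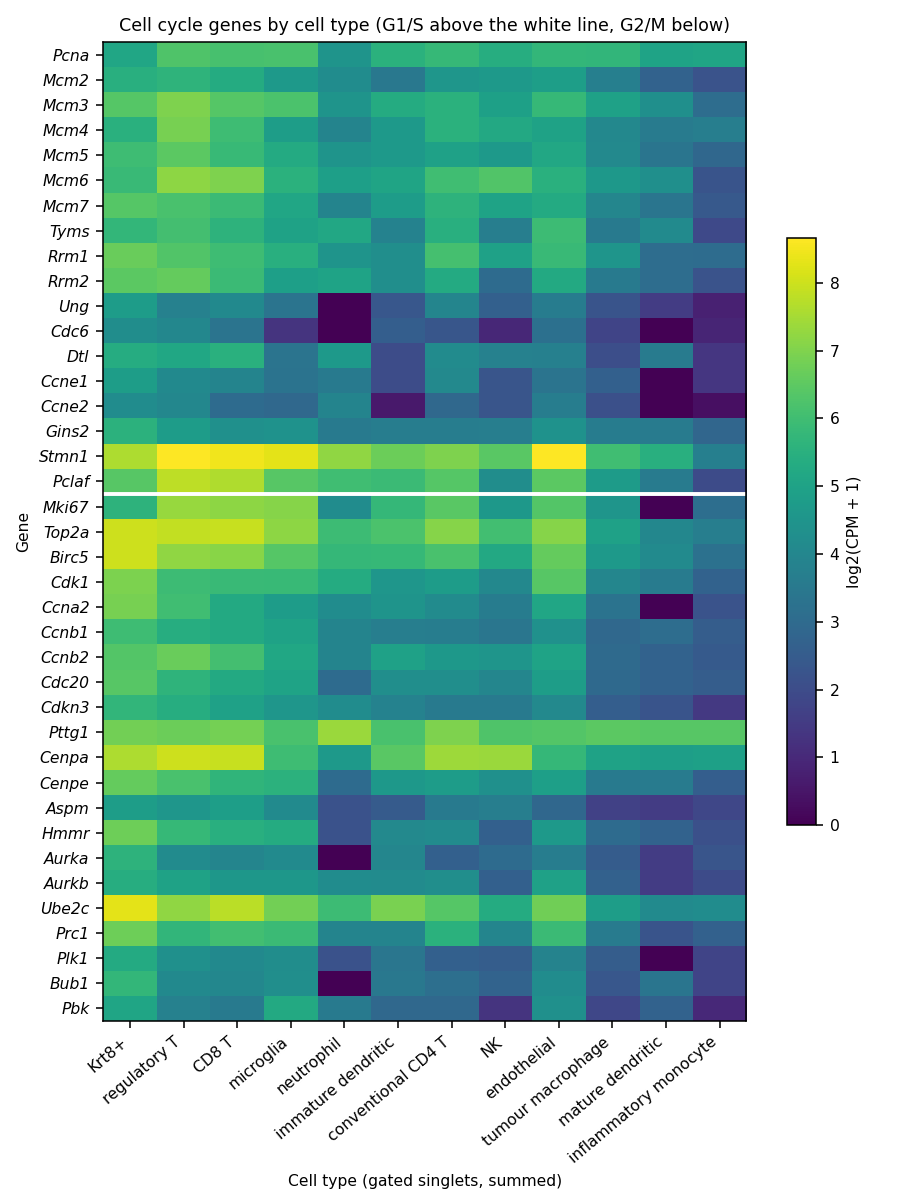
Level of each of the 39 members by cell type, as log2(CPM + 1) of summed UMIs on a colour scale, with types in columns and members grouped by phase. Krt8+ cells have the highest level of 22 members and regulatory T cells, which are 105 cells, of 12, whereas Pttg1 is highest in neutrophils and Stmn1 in endothelial cells. Deep cells weigh more in these sums.

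The division markers Mki67 and Top2a gave different orders. Mki67, the Ki-67 protein that coats mitotic chromosomes, was, pooled over samples, highest in regulatory T cells (159.9 CPM), CD8 T cells (146 CPM) and microglia (135 CPM), then conventional CD4 T (85.5), endothelial (80.4), immature dendritic (53.1) and Krt8+ cells (47.0 CPM). NK cells had 23.5, macrophages 22.0, neutrophils 17.7 and monocytes 7.68 CPM, and mature dendritic cells had 0 UMIs. Top2a was highest in Krt8+ cells (255 CPM), with CD8 T cells at 244 and regulatory T cells at 233 CPM, and it ran through microglia (145.5), conventional CD4 T (135.4) and endothelial cells (134.9) to monocytes (11.9 CPM). So 6 types exceeded Krt8+ cells in Mki67 and none of the 11 did in Top2a.

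By sample, Mki67 in Krt8+ cells of samples 1 to 8 was 53.4, 40.3, 44.5, 43.0, 55.1, 44.6, 59.5 and 44.1 CPM, a narrow band. In CD8 T cells of samples 5 to 8 it was 83.7, 78.4, 77.7 and 221 CPM, all above the Krt8+ band, with sample 8 far above the rest. In regulatory T cells of samples 5 and 8 it was 48.4 and 103 CPM, and in conventional CD4 T cells of samples 5, 7 and 8 it was 84.1, 0 and 108 CPM, so that these overlapped Krt8+ cells. Both regulatory T cell samples lay below every microglia sample (108 to 221 CPM), so the pooled order of these types does not hold by sample. Endothelial cells of samples 3 to 8 had 53.5, 0, 76.9, 98.5, 71.0 and 187 CPM. Sample 8 was thus highest in Mki67, although 1 of its 27 endothelial cells was called dividing (3.70%). In immature dendritic cells Mki67 stood at 55.7, 55.7 and 51.7 CPM in samples 5, 7 and 8. NK cells ranged from 5.58 to 69.1 CPM, macrophages from 2.82 to 75.3 CPM and monocytes from 0 to 22.8 CPM.

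Top2a in Krt8+ cells of samples 1 to 8 was 232, 212, 232, 203, 293, 245, 295 and 301 CPM. CD8 T cells of samples 5 to 8 had 170.3, 91.1, 138.6 and 362 CPM, so only sample 8 rose above the Krt8+ band. Microglia of samples 3, 5, 6, 7 and 8 had 198, 92.2, 138.2, 145.2 and 167 CPM, all below it. In regulatory T cells it stood at 190.0 and 187 CPM, and in conventional CD4 T cells of samples 5, 7 and 8 at 113, 41.1 and 216 CPM. Endothelial cells ranged from 0 to 262 CPM, NK cells from 35.6 to 152 CPM, macrophages from 11.3 to 90.8 CPM and monocytes from 6.16 to 26.8 CPM. The endothelial maximum was again in sample 8, with 1 of 27 cells called dividing. Immature dendritic cells had 58.6, 63.2 and 105 CPM in samples 5, 7 and 8.

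Pcna was higher in most types than in Krt8+ cells. It ranged from 21.2 CPM in neutrophils to 76.2 in regulatory T cells, and 8 of 11 types exceeded Krt8+ cells (33.5 CPM). By sample it was 29.6 to 37.8 CPM in Krt8+ cells (median 33.8) and 45.1 to 55.9 in macrophages, with no overlap. CD8 T cells of samples 5 to 8 had 46.3, 37.9, 74.4 and 90.9 CPM, and microglia of samples 3, 5, 6, 7 and 8 had 113, 65.3, 73.5, 51.7 and 76.1 CPM. Monocytes ranged from 21.4 to 40.9 CPM and overlapped Krt8+ cells, as did NK cells (20.7 to 45.1 CPM) and endothelial cells (5.38 to 99.4 CPM). Regulatory T cells of samples 5 and 8 had 58.7 and 73.7 CPM.

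Mcm5 spread more widely. It was 46.8 to 73.9 CPM over the samples of Krt8+ cells, 37.3, 20.2, 64.2 and 77.0 in CD8 T cells of samples 5 to 8, and 103.6 and 73.7 in regulatory T cells of samples 5 and 8. Microglia of samples 3, 5, 6, 7 and 8 had 48.9, 28.8, 44.2, 17.2 and 52.6 CPM, endothelial cells had 10.8 to 56.5 CPM, NK cells 15.97 to 33.3 CPM, macrophages 7.06 to 23.6 CPM and monocytes 4.18 to 10.8 CPM. The ranges of microglia and macrophages overlapped, as did those of macrophages and monocytes.

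Cell types were then compared within samples on UMIs summed per type and sample, with edgeR's quasi-likelihood test, blocked on the hashtag sample, and p-values were adjusted by Benjamini-Hochberg over all genes tested. In such sums more dividing cells and more RNA per dividing cell cannot be told apart. Genes with few UMIs were filtered out, so a member is tested only where its levels allow.

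Between Krt8+ cells and macrophages (7 samples) 39 of 39 members were tested, 37 were higher in Krt8+ cells and 1 was lower. The background was high, since 81.6% of all genes tested passed in either direction and 48% passed as higher. The median member difference was 1.93 on the log2 scale for G1/S and 3.09 for G2/M members, against 0.29 over all genes. Among G2/M members Hmmr, a spindle protein, differed by 3.68 (SE 0.21, adjusted p = 8.12e-12), Pbk, a mitotic kinase, by 3.55 (SE 0.23, adjusted p = 4.86e-11) and cyclin A2 (Ccna2) by 3.52 (SE 0.19, adjusted p = 5.53e-12). Hmmr was 89.7 to 138 CPM in Krt8+ cells and 2.46 to 22.2 CPM in macrophages, with no overlap. Among G1/S members Dtl differed by 3.47 (SE 0.24, adjusted p = 2.15e-10), Rrm2, the small subunit of ribonucleotide reductase, by 3.00 (SE 0.24, adjusted p = 1.34e-09), and Cdc6 by 2.73 (SE 0.21, adjusted p = 1.15e-09).

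Pcna was the member that was lower in Krt8+ cells. Its log2 difference was -0.77 (SE 0.09, adjusted p = 1.9e-07), it was lower in 7 of 7 samples, and medians were 34.9 and 50.8 CPM. Pttg1 was the 1 member that did not pass, at 0.14 (adjusted p = 0.144). Mki67 differed by 0.98 (adjusted p = 0.000761), the smallest passing difference among the G2/M members. These differences are given as fitted, without subtracting the median of 0.29 over all genes, and Pttg1 at 0.14 lay below that median. All 25 other G1/S genes and all 27 other G2/M genes on separate lists were higher too. Of all genes tested 33.6% passed as lower, while of 11 tested genes that restrain the cycle 6 were lower and 1 was higher in Krt8+ cells. Among these, Rb1, the retinoblastoma protein, differed by -3.09 and Cdkn1a, the p21 inhibitor, by -2.45.

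Microglia exceeded macrophages in nearly all G2/M members. Of 34 members tested over 5 samples 29 were higher and 0 lower, where 51.2% of all genes passed in either direction and 25.5% as higher. They comprised 20 of 21 G2/M and 9 of 13 G1/S members, with median log2 differences of 2.12 and 0.92, against 0.01 over all genes. Pbk in microglia of samples 3, 5, 6, 7 and 8 was 56.6, 31.7, 25.2, 30.8 and 42.9 CPM, against 1.23, 4.89, 1.24, 3.95 and 1.14 CPM in macrophages. The groups did not overlap, and the difference was 3.63 (SE 0.37, adjusted p = 7.92e-06). Mki67 was 221, 108, 123, 145.2 and 116 CPM against 19.7, 26.0, 18.7, 12.6 and 17.05 CPM, a difference of 2.67 (SE 0.20, adjusted p = 8.21e-07). The groups did not overlap. Aspm, which organises spindle poles, differed by 3.08 (SE 0.38, adjusted p = 3.23e-05). It stood at 11.5 CPM in dividing and 0.51 CPM in other macrophages. Pbk and Aspm were sparse in macrophages and may have passed the filter through microglia alone.

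Among G1/S members, Stmn1 was 424, 293, 280.4, 277 and 322 CPM in microglia and 76.8, 73.0, 69.6, 65.5 and 36.7 CPM in macrophages of the same samples, without overlap. It differed by 2.18 (SE 0.16, adjusted p = 6.77e-07), Pclaf by 1.37 (SE 0.30, adjusted p = 0.00239) and Rrm2 by 1.27 (SE 0.38, adjusted p = 0.0145). Pcna at 0.38 (adjusted p = 0.0727) and Pttg1 at -0.31 (adjusted p = 0.056) did not pass. Other genes of the cycle moved the same way, 21 of 22 other G2/M genes and 10 of 21 other G1/S genes being higher and 0 lower. Of 10 tested cyclins, kinases and other regulators 2 were higher and 2 lower in microglia. Of 10 tested genes that restrain the cycle 3 were higher and 2 lower, where 25.7% of all genes passed as lower. The lower ones included cyclin D2 (Ccnd2), which drives G1, at -1.90 (adjusted p = 0.000342) and Cdkn1a at -0.93 (adjusted p = 6.18e-05). Rhox5 was nearly equal in both types, at 2.73 and 2.67% of the Krt8+ level.

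Macrophages in turn exceeded monocytes. Of 16 members tested over 6 samples 10 were higher and 0 lower, where 44.5% of all genes passed in either direction and 20.9% as higher. Mcm6 was 11.3 to 42.3 CPM in macrophages and 1.19 to 5.95 CPM in monocytes, and differed by 2.30 (SE 0.28, adjusted p = 8.58e-06). Stmn1 differed by 2.06 (SE 0.19, adjusted p = 4.3e-07) and the helicase subunit Mcm3 by 1.84 (SE 0.22, adjusted p = 5.89e-06). Of G2/M members Birc5 differed by 1.21 (SE 0.30, adjusted p = 0.00364), Mki67 by 1.00 (SE 0.33, adjusted p = 0.0226) and Cdk1 by 0.94 (SE 0.27, adjusted p = 0.011). The count fell to 3 of 10 tested without cells of over 30000 UMIs, a limit chosen after the data were seen. Of all genes tested 23.6% passed as lower in macrophages. Of 9 tested genes that restrain the cycle 6 were lower and 0 higher, the lower ones including Btg1 (-1.34) and Cdkn1b, the p27 inhibitor (-0.88).

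CD8 T cells exceeded NK cells in G1/S and G2/M members. Of 23 members tested over samples 5 to 8, 10 were higher and 0 lower, where 13.1% of all genes passed in either direction, 6.09% as higher and 7.01% as lower. Pclaf was 139, 40.5, 101 and 308 CPM in CD8 T cells and 14.5, 27.6, 2.37 and 11.8 CPM in NK cells, without overlap, and differed by 3.72 (SE 0.40, adjusted p = 2.53e-05). Dtl differed by 1.75 (SE 0.34, adjusted p = 0.00344) and Stmn1 by 1.57 (SE 0.40, adjusted p = 0.0194). Mki67 was 83.7, 78.4, 77.7 and 221 CPM against 21.8, 69.1, 11.9 and 7.85 CPM, with sample 6 nearly alike in both types, and differed by 2.47 (SE 0.46, adjusted p = 0.00216). Prc1, which bundles the central spindle, differed by 1.96 (SE 0.42, adjusted p = 0.00591) and Birc5 by 1.70 (SE 0.37, adjusted p = 0.00692). Cenpa was near equal at 0.08 (adjusted p = 0.936). In sample 6, 1 NK cell gave 90% of the type's Mki67 UMIs. The number of members passing was 17 without sample 6, 6 without sample 5 and 3 without sample 8.

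CD8 T cells also exceeded conventional CD4 T cells in some members. Of 20 tested over samples 5, 7 and 8, 6 were higher and 0 lower, where 6.1% of all genes passed in either direction, 2.36% as higher and 3.74% as lower. Stmn1 was 218, 229.9 and 549 CPM in CD8 T cells and 71.2, 24.6 and 154 CPM in conventional CD4 T cells, and differed by 1.99 (SE 0.25, adjusted p = 6.82e-06). Pclaf differed by 1.28 (SE 0.33, adjusted p = 0.0199) and Mcm6 by 1.1 (SE 0.30, adjusted p = 0.0289). Ube2c, the ubiquitin-conjugating enzyme of the anaphase-promoting complex, was 119.5, 47.3 and 355 CPM against 45.3, 32.9 and 108 CPM and differed by 1.5 (SE 0.27, adjusted p = 0.000934). Birc5 differed by 1.04 (SE 0.27, adjusted p = 0.0189) and Top2a by 0.88 (SE 0.24, adjusted p = 0.0254). Mki67 at 0.86 (adjusted p = 0.151) did not pass. Only 1 member passed without cells of over 30000 UMIs, without the replicate block or with DESeq2, and 10 passed without sample 5.

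Regulatory and conventional CD4 T cells could be compared in samples 5 and 8. Of 21 members tested 1 was higher, where 0.909% of all genes passed in either direction and 0.551% as higher. This was Stmn1, at 238 and 550.5 CPM in regulatory and 71.2 and 154 CPM in conventional cells, which differed by 1.78 (SE 0.24, adjusted p = 0.0272). Mki67 at -0.43 (adjusted p = 0.65) and Pcna at -0.01 did not pass. Without the replicate block 2 members passed, with at least 10 cells per type 4, with no low-count filter 3, with another hashtag rule 7 and without cells of over 30000 UMIs 2. Immature and mature dendritic cells shared 1 sample with 20 cells of both, and endothelial and mural cells shared 0, so these pairs have no test.

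**Figure D3:**
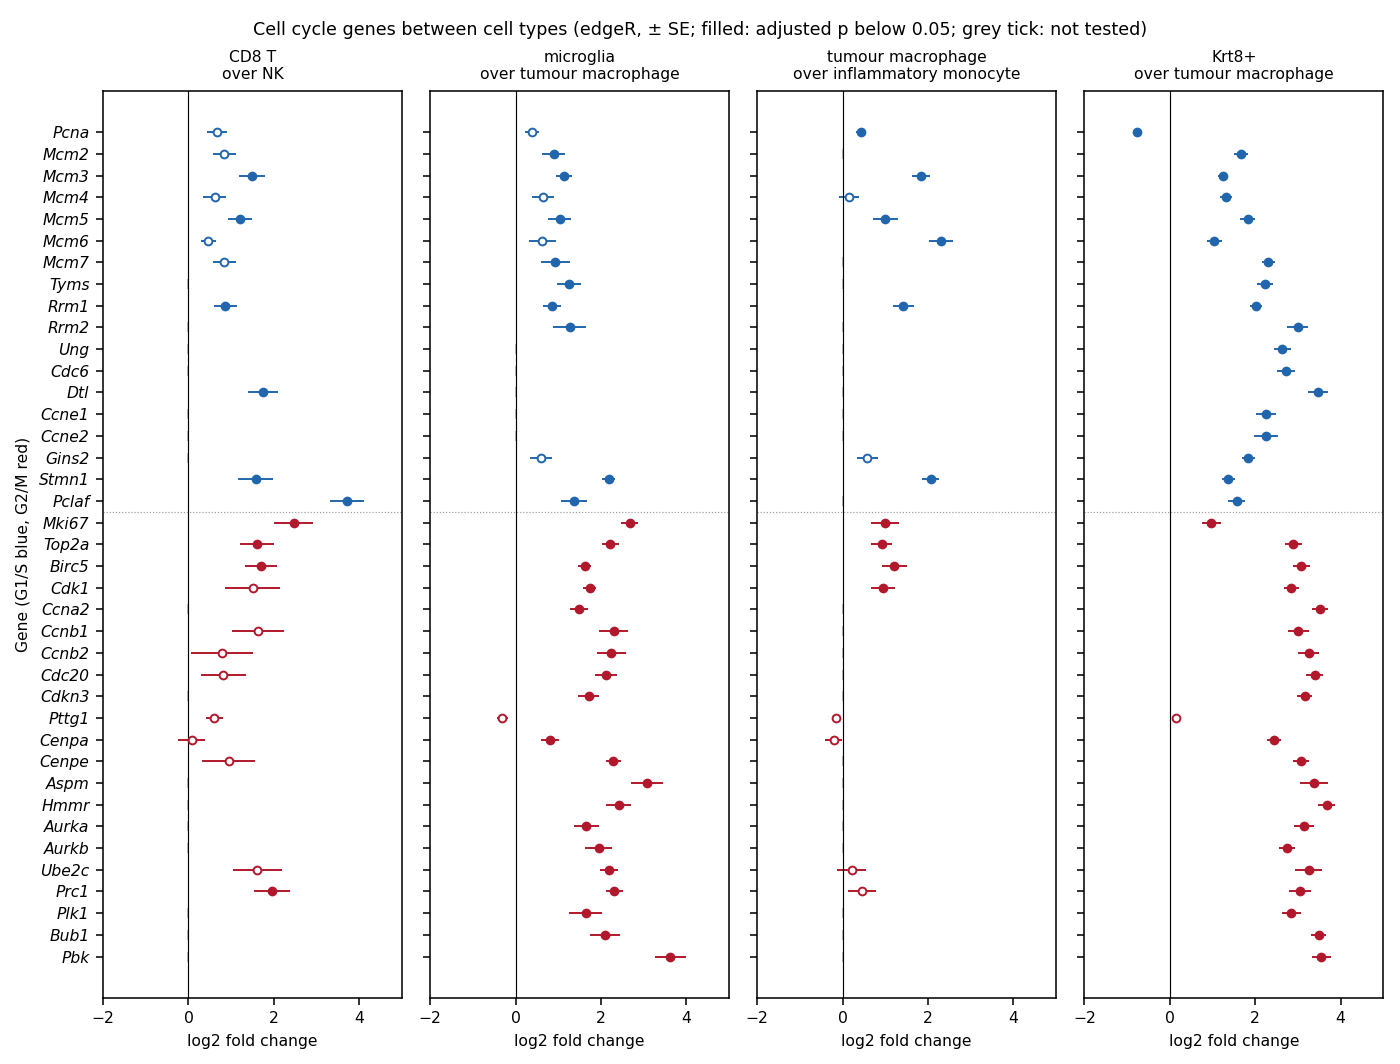
Log2 fold change of each tested member (point, with its SE as a bar) in 4 of the cell type comparisons, with filled points for an adjusted p below 0.05 in edgeR. A grey tick at 0 marks an untested member and is not a value. Krt8+ cells lead macrophages in 37 of 39 members, with Pcna below 0 at -0.77.

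The balance of phases is given as the G2/M part of all member UMIs in dividing cells at 2000 UMIs, per sample with at least 10 dividing cells. The dividing rule used these same UMIs, so the values are a description. Krt8+ cells had a median of 68.5% (63.8 to 77.5, 8 samples), CD8 T cells 56.0% (48.2 to 63.0, 4 samples), NK cells 58.0% (56.9 to 66.4, 3 samples), macrophages 54.6% (48 to 75, 4 samples) and microglia 53.7% (44.6 to 61.0, 5 samples). The lowest Krt8+ sample lay above the highest of CD8 T cells and of microglia, by less than 1 percentage point for CD8 T cells. Monocytes stood apart at 95.8%, over 2 samples, where Pttg1 gave much of the G2/M signal. Without Stmn1, the medians were 72.9% for Krt8+, 63.3% for CD8 T, 69.6% for NK cells, 69.4% for microglia and 59.5% for macrophages. Another thinning seed gave 62.0% for microglia and 66.0% for macrophages. By the 36 members Krt8+ cells ranged from 65.4 to 79.6% (8 samples) and microglia from 50.9 to 67.6% (3 samples), so these overlapped. CD8 T cells ranged from 50 to 65.3% (2 samples), just below Krt8+ cells. By the rule's arms, 1639 Krt8+ cells were dividing by G2/M members alone, 345 by G1/S members alone and 1207 by both. In microglia the counts were 33, 33 and 39, in CD8 T cells 66, 26 and 41, in macrophages 60, 16 and 7, and in monocytes 48, 2 and 1.

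Krt8+ cells were deep enough to see both phases in 1 cell. Thinned to 20000 UMIs, 4441 of them held a median of 19 G1/S UMIs (quartiles 11 and 30) and 34 G2/M UMIs (8 and 62). Cells with under 6 G2/M UMIs made up 20.7%, and 14.5% were also under 10 G1/S UMIs, low in both phases. Only 1.33% had under 6 G2/M UMIs beside at least 20 G1/S UMIs. At the other end 26.1% held at least 40 G2/M and at least 20 G1/S UMIs, and 19.3% held at least 40 G2/M with fewer G1/S UMIs. The sums of both phases correlated at a Spearman rho of 0.36 over cells, a description over cells of 1 capture.

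**Figure D4:**
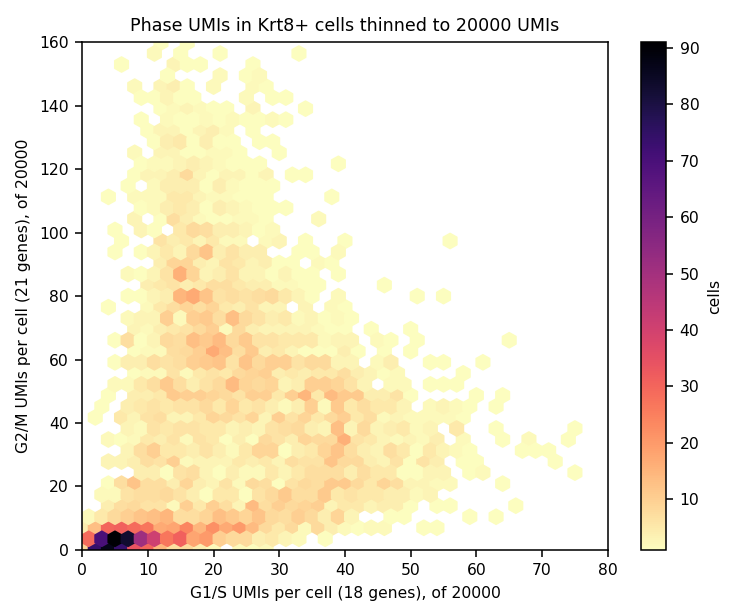
G1/S against G2/M member UMIs in each of 4441 Krt8+ cells thinned to 20000 UMIs. Cells low in both phases (14.5%) sit at the lower left, few lie high in G1/S alone (1.33%), and 11 cells beyond the axes are not drawn.

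The samples differed in this spread. Median G2/M UMIs of samples 1 to 8 were 34, 31, 30, 27, 44, 26, 41 and 43, and median G1/S UMIs were 16, 19, 20, 16, 20, 17, 22 and 21. The share of cells under 6 G2/M UMIs was 12.2, 20.04, 20.3, 23.9, 15.3, 29.3, 14.4 and 9.85%. Samples 5, 7 and 8 held the most G2/M UMIs and samples 4 and 6 the fewest, while G1/S medians stayed within 16 to 22.

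Within these cells the G2/M members went together more closely than the G1/S members. The mean rho between members was 0.43 within G2/M, 0.23 within G1/S and 0.08 between the phases. Close pairs included Birc5 with Ube2c (0.72), Birc5 with Cenpa (0.71), Cdc20 with Cenpa (0.70), Hmmr with the kinesin Cenpe (0.70) and Birc5 with Ccna2 (0.69), and Top2a was closest to Prc1 (0.66). Among G1/S members, Stmn1, Pclaf and Rrm1 had a higher mean rho with the G2/M members (0.35, 0.31 and 0.28) than with the G1/S members (0.21, 0.28 and 0.26). For Rrm2 it was 0.24 with G2/M and 0.31 with G1/S members. Pclaf was closest to Top2a (0.56). Ung, which removes uracil from DNA, went the other way, at -0.21 with the G2/M members. Sparse genes have low rho by construction. Ube2c averaged 5.30 and Birc5 4.70 UMIs per cell, whereas Pcna averaged 0.66.

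**Figure D5:**
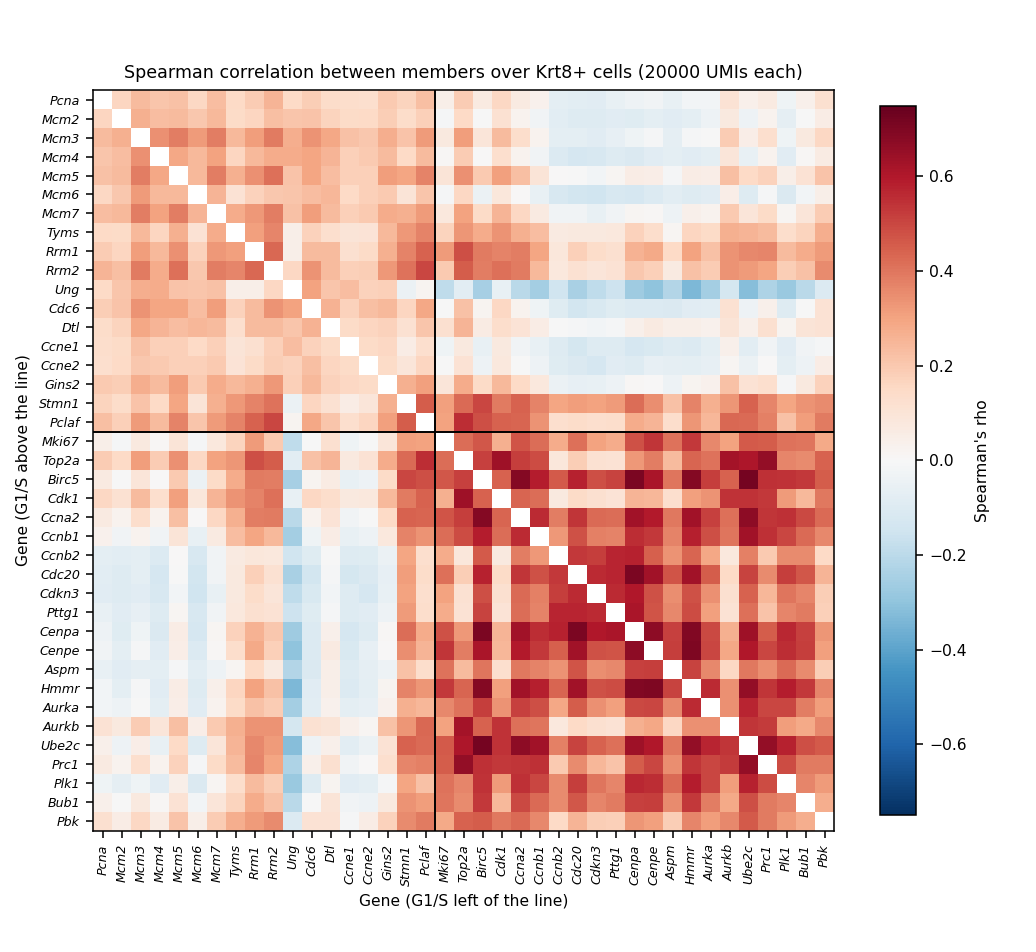
Spearman rho between members over 4441 Krt8+ cells thinned to 20000 UMIs, with G1/S members before G2/M members on both axes. The G2/M block has the highest values (mean 0.43), and Stmn1 and Pclaf share in it.

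Genes that did not choose the dividing cells were then compared between dividing and other cells of a type, in samples with at least 10 of each. Members were left out. The low-count filter kept a gene with enough UMIs in the samples of 1 group, so a sparse gene could be tested through the dividing cells alone. The 76 genes came from 4 lists, which are 25 other G1/S genes, 27 other G2/M genes, 11 cyclins, kinases and other regulators, and 13 genes that restrain the cycle. In Krt8+ cells 60 of 74 tested were higher and 9 lower, where 53.6% of all genes tested passed, 25% as higher and 28.6% as lower. In microglia 29 of 39 were higher and 3 lower, where 8.96% of all genes passed, 5.07% as higher and 3.89% as lower. In macrophages 19 of 43 were higher and 0 lower, where 1.55% passed, 1.07% as higher and 0.478% as lower. In CD8 T cells 9 of 21 were higher and 0 lower, where 1.89% passed, 1.58% as higher and 0.316% as lower. In monocytes 1 of 15 was higher, where 0.293% passed, 0.158% as higher. The CD8 T count was 4 without sample 5, 25 without sample 6, 21 without sample 7 and 3 without sample 8, and the macrophage count was 12 without sample 5 and 34 without sample 8. With dividing CD8 T cells called by the 36 members, 44 genes were higher and 4 lower of 61 tested.

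The other G2/M genes had larger medians than the other G1/S genes in microglia, macrophages and Krt8+ cells. The dividing rule asked for 2 G2/M UMIs but 3 G1/S UMIs, so this order cannot be told apart from the choice of cells. By G2/M members alone the rule called 60 macrophages and 1639 Krt8+ cells, and by G1/S members alone 16 and 345. For microglia both counts were 33. Of the other G2/M genes, 18 of 18 tested passed in microglia, with a median log2 difference of 4.27. In macrophages 14 of 15 passed (2.94) and in Krt8+ cells 27 of 27 (2.93), against -0.04, -0.01 and -0.03 over all genes. These counts and medians cover tested genes only, 18 of the 27 listed in microglia and 15 in macrophages. Sparse ones may have passed the filter through the dividing cells alone, so the counts do not speak for the whole list. Dividing CD8 T cells passed 3 of 5, with a median of 1.37, as for their other G1/S genes. Nusap1, which bundles spindle microtubules, differed by 5.06 (SE 0.38, adjusted p = 2.65e-07) in microglia, by 4.37 (SE 0.51, adjusted p = 0.000279) in macrophages and by 4.30 in Krt8+ cells. In CD8 T cells it held 175 UMIs in dividing and 2 in other cells, a ratio of 99.1 (counting interval 27.0 to 825). Dlgap5, a spindle assembly factor, held 71 and 2 UMIs in microglia, a ratio of 70.7 (18.9 to 595), and differed by 3.29 (SE 0.44, adjusted p = 0.000835) in macrophages. The checkpoint kinase Bub1b differed by 5.05 (SE 0.50, adjusted p = 4.65e-06) in microglia, and Cdca3, which helps mitotic entry, by 3.64 (SE 0.33, adjusted p = 3.94e-05) in macrophages. In CD8 T cells Cenpf, a kinetochore protein, differed by 4.07 (SE 0.43, adjusted p = 0.000303) and Cks2, a Cdk1 partner, by 1.37 (SE 0.23, adjusted p = 0.00915). In Krt8+ cells the motors Kif2c and Kif11 differed by 4.29 and 3.98. In monocytes 0 of 2 tested G2/M genes passed.

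The other G1/S genes were higher too, with medians of 1.95 in microglia, 1.20 in macrophages, 1.07 in Krt8+ cells and 1.37 in CD8 T cells. Krt8+ cells passed 24 of 25, among them the origin factor Mcm10 at 1.95 and thymidine kinase Tk1 at 1.92. Microglia passed 6 of 7, and Tk1 differed by 4.08 (SE 0.34, adjusted p = 9.56e-07), the flap nuclease Fen1 by 2.39 (SE 0.36, adjusted p = 0.000503) and the origin subunit Orc6 by 2.11 (SE 0.33, adjusted p = 0.000656). CD8 T cells passed 5 of 6, with Clspn, an adaptor of the replication checkpoint, at 3.67 (SE 0.34, adjusted p = 0.000129), Tipin, a fork protein, at 2.04 (SE 0.30, adjusted p = 0.00453) and Dut, which degrades dUTP, at 1.53 (SE 0.24, adjusted p = 0.00545). Macrophages passed 3 of 12, which were Dut at 2.11 (SE 0.33, adjusted p = 0.00298), Rpa2, a subunit of the single-strand binding protein, at 1.91 (SE 0.43, adjusted p = 0.0337) and Tipin at 1.81 (SE 0.37, adjusted p = 0.0197).

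The cyclins, kinases and other regulators of the third list and the genes that restrain the cycle went in both directions. Gmnn, which blocks renewed origin licensing, was higher in dividing cells of microglia (1.99, SE 0.26, adjusted p = 0.000102), macrophages (1.87, SE 0.26, adjusted p = 0.000958), CD8 T cells (1.86, SE 0.30, adjusted p = 0.00659) and Krt8+ cells (1.02). The G1 kinase Cdk4 rose by 0.93 in microglia (SE 0.22, adjusted p = 0.0142) and by 0.92 in macrophages (SE 0.17, adjusted p = 0.0114). Ccnd2 was lower in dividing microglia, at -1.65 (SE 0.43, adjusted p = 0.0264), and in dividing Krt8+ cells, at -0.51, whereas in monocytes it was the 1 passing gene and was higher, at 1.97 (SE 0.38, adjusted p = 0.000172, 2 samples). That call was lost without the replicate block and with DESeq2. In microglia the inhibitors Cdkn2c and Cdkn2d and the pocket protein Rbl1 were higher, at 3.12 (SE 0.40, adjusted p = 9.16e-05), 1.59 (SE 0.25, adjusted p = 0.000698) and 1.92 (SE 0.31, adjusted p = 0.000738). Btg1 and Btg2, which slow proliferation, were lower at -0.68 and -0.72. In Krt8+ cells Cdkn2d, Rbl1 and Cdkn2c were higher at 1.35, 0.98 and 0.94, the phosphatase Cdc25b and the kinase Wee1 at 1.33 and 0.76, and Cdkn1a was lower at -0.60.

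Outside all lists, the linker histone gene Hist1h1b was among the 5 highest genes in dividing CD8 T cells (4.37, SE 0.28, adjusted p = 8.69e-06), microglia (6.16, SE 0.29, adjusted p = 3.18e-09) and macrophages (4.70, SE 0.45, adjusted p = 3.94e-05). CD8 T cells added the condensin gene Smc2 (2.90), the histone variant H2afx (2.64), tubulin Tuba1b (2.43) and Hist1h4d (2.08). In microglia the histone genes Hist1h2ae and Hist1h2ap were higher at 5.22 and 4.89, and Esco2, a cohesin acetyltransferase, and Cit, citron kinase of cytokinesis, held 73 and 63 UMIs in dividing cells against 2 each in the others, ratios of 72.7 (19.4 to 612) and 62.8 (16.7 to 529.6). Macrophages added Spc24 (3.95), Hist1h2ae (3.84), Shcbp1 (3.40) and Asf1b (2.61). Krt8+ cells were led by Depdc1b (4.38), Depdc1a (4.10), Kif14 (3.95), Sapcd2 (3.91) and Prr11 (3.89).

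Genes lower in dividing cells were of other kinds. In CD8 T cells the chemokine Ccl4 was lower at -1.97 (SE 0.37, adjusted p = 0.0157), with medians of 632 and 2467 CPM, followed by Rgs10 (-1.66), Arhgap25 (-1.30), Kdm6b (-1.23) and Zfp36l1 (-0.91). In microglia they were AA467197 (-1.83), the stress gene Gadd45g (-1.67), Atp8a2 (-1.45), Crebrf (-1.45) and Otud1 (-1.45). In macrophages they were Il15ra (-1.86), Nr4a3 (-1.61), Gsr (-1.35), Ifitm6 (-1.28) and Mcemp1 (-1.20). In Krt8+ cells they were Trp53cor1, an RNA induced by p53 (-1.80), the hypoxia gene Car9 (-1.61), Selenbp1 (-1.54), Ndrg4 (-1.50) and Cdsn (-1.47). In monocytes Igkc was at 0 UMIs in dividing and 435 in other cells, Cxcl9 at 4 and 1070 UMIs, and Dmkn (-2.44), Fam26f (-1.55) and Slpi (-1.32) were lower, while Ly6i (1.46) and H2-Q7 (1.24) were higher. These monocyte sums rest on 22 dividing cells in 2 samples, and over all samples 44 of 51 dividing monocytes sat exactly at the rule's edge.

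Surface tags of dividing and other CD8 T cells were compared in 4 samples with an exact two-sided sign-flip permutation test, for which the smallest possible p is 0.125. Of 32 tags tested 0 passed after adjustment and 0 had a raw p below 0.05, which this design cannot reach. CD25, the interleukin-2 receptor alpha chain, was higher in dividing cells of 4 of 4 samples, with a median log2 ratio of 0.87 in its share of antibody counts (exact permutation p = 0.125, adjusted 0.286), and PD-1 was higher in 4 of 4 by 0.30. In all, 4 tags were higher in every sample and 10 were lower. As counts per cell, 7 were higher and 2 lower in every sample, with CD25 at 1.05.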

How the data were processed

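The deposited files hold raw counts: UMIs per gene and tags per antibody and hashtag, for called barcodes. Per the submitters' processing notes Cell Ranger 3.1, Seurat 3.1.1 and build mm10 were used. The sources used here name no gene annotation. The total was 642058717 gene UMIs. Barcodes needed 500 genes or more and no more than 15% mitochondrial UMIs. Hashtags were called with HTODemux (Seurat 5.3.0, quantile 0.99), and hashtag doublets and negatives were left out. As an alternative, cells marked by Scrublet (scanpy 1.11.5 and scikit-image 0.26.0, rate set to 0.1) were removed. It marked 1.29% of singlets and 25.2% of hashtag doublets, so doublets within 1 sample may remain.

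Cell types were gated on marker UMIs per 2000 UMIs, with minimums from 0.2 (Krt8+) to 32 (choroid plexus). The minimums were set after marker values had been seen, and the members and lists were chosen with earlier results of these data known. Sums per hashtag sample (at least 20 cells per type, or 10 per state) were tested with edgeR 4.0.16 in R 4.3.3 (quasi-likelihood, TMM, filterByExpr, adjusted p below 0.05), with the hashtag sample as a block. The script was tested on simulated counts. The pairing is by design, since a hashtag sample gives both groups. Deviations of paired sums from the group means correlated at -0.06 to 0.55. DESeq2 1.42.0, no low-count filter, other thinning, gates, hashtag rule and dividing rules, and leaving out samples were alternatives.

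Genes named were Mki67, Top2a, Pcna and Mcm5 throughout, the 3 G1/S and 3 G2/M members with the largest passing change per type comparison, the 3 passing genes of each other list with the largest change, and the 5 highest and 5 lowest passing genes outside the lists that moved alike in every sample. Other genes named, such as Pttg1, Cenpa, Stmn1, Rhox5 and the Ccnd2, Cdkn1a, Rb1, Btg1 and Cdkn1b values between types, were chosen after their values were seen. There was 1 capture, so samples differ by no capture batch. PCR copies are collapsed by UMI, and intervals cover counting error only. Some items are not reported here.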

Additional observations from a re-analysis of the deposited data

Results flagged for a closer look

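Among 39 sets of values of Mki67, Top2a, Pcna, Mcm5 and the dividing and phase shares, each over 4 to 8 hashtag samples, 5 had 1 sample far from the others. Chance flags about 1 in 20 such sets. Mki67 in CD8 T cells was 221 CPM in sample 8 and 77.7 to 83.7 CPM in the others. The cell with the most Mki67 gave 10.0% of these UMIs, and the level was 203 CPM without it. Mki67 and Top2a in NK cells of sample 6 were 69.1 and 152 CPM, against 5.58 to 21.8 and 35.6 to 56.6 CPM in the others. Of 22 cells 1 gave 90% and 90.9% of the UMIs, and the levels were 7.89 and 15.8 CPM without it. Mki67 and Top2a in macrophages of sample 4 were 75.3 and 90.8 CPM, against 2.82 to 26.0 and 11.3 to 36.7 CPM in the others. There 1 of 22 cells gave 64.7% and 63.4%, and the levels were 28.8 and 36.1 CPM without it. The NK and macrophage cells that gave most UMIs held 17966 and 35424 UMIs in all, 0 and 1 of Rhox5 and 0 of Krt8.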

How the results depend on the processing

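Of 329 recomputed values 247 stayed on their side, 20 counts rose and 24 fell by over 1.5 times or across the threshold, 38 shares moved by more than the spread between samples, and no called value changed sign. Shares are medians over samples. The dividing shares at the main rule and at 3 G2/M or 4 G1/S UMIs were 72.9 and 64.4% in Krt8+, 32.3 and 13% in CD8 T, 32 and 12% in conventional CD4 T, 38.5 and 24.6% in regulatory T, 19.0 and 9.09% in NK cells, 13.1 and 4.05% in macrophages, 8.90 and 0.956% in monocytes and 20 and 8.33% in immature dendritic cells. In microglia they were 25.8 and 15.5% and in endothelial cells 16.2 and 6.93%, within the wider spread between their samples. Thinned to 1000 UMIs they were 54.8, 15.01, 11.5, 32.2, 7.41, 5.23, 1.02 and 8.20% in the order of the first 8 types. Without Pttg1, Cenpa and Stmn1 they were 16.95% (CD8 T), 11.4% (conventional CD4 T), 30.9% (regulatory T), 7.89% (NK), 5.24% (macrophages), 2.57% (monocytes) and 8.33% (immature dendritic). Regulatory T cells gave 45.9% with another thinning seed and immature dendritic cells 13.6% with doubled marker minimums.

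The G2/M part of phase UMIs without Stmn1 was 72.9% (Krt8+), 63.3% (CD8 T), 69.6% (NK), 69.4% (microglia) and 72.1% (endothelial). It was 72.7% in Krt8+ cells and 61.1% in microglia at 1000 UMIs, 66.8% in NK cells under the stricter rule, 62.0% in microglia with another seed, 63.6% in NK and 44.8% in endothelial cells with doubled minimums, and 64.7% in microglia and 66.7% in endothelial cells without Pttg1, Cenpa and Stmn1.

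Members passing for CD8 T over NK (10) were 6 with DESeq2, 17 with doubled minimums, 23 with no filter, and 3 to 17 with 1 sample left out. For CD8 T over conventional CD4 T (6) they were 1 with DESeq2, 1 without cells over 30000 UMIs, 3 with a strict Krt8 limit, 10 with no filter, and 4 to 10 with 1 sample left out. For regulatory over conventional CD4 T cells (1) they were 7 with a hashtag margin rule, 2 without cells over 30000 UMIs, 4 with at least 10 cells per type and 3 with no filter. For macrophages over monocytes (10) they were 6 with doubled minimums, 3 without cells over 30000 UMIs and 19 with no filter. The Krt8+ and microglia comparisons with macrophages stayed at 38 of 39 and between 27 and 34 members with 1 sample left out. Other cell cycle genes passing in dividing CD8 T cells (9) were 15 with the margin rule, 30 under the stricter dividing rule, 48 without Pttg1, Cenpa and Stmn1, 45 with no filter, and 3 to 25 with 1 sample left out. They were 58 in microglia and 43 in macrophages with no filter, 12 to 34 in macrophages with 1 sample left out, and 0 in monocytes with DESeq2.

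Without the replicate block 1 member passed for CD8 T over conventional CD4 T, 2 passed for regulatory over conventional CD4 T and 0 other cell cycle genes passed in monocytes, and the block changed no other count by over 1.5 times. On sums of cells thinned to 2000 UMIs fewer genes could be tested. Members passing were 2 of 5 for CD8 T over NK, 1 of 3 for CD8 T and 0 of 1 for regulatory over conventional CD4 T, 2 of 3 for microglia over macrophages and 0 of 1 for macrophages over monocytes. Other cell cycle genes passing were 0 of 6 in CD8 T cells, 1 of 4 in microglia (a gene lower in dividing cells), 0 of 4 in macrophages, 0 of 5 in monocytes and 43 of 53 in Krt8+ cells. Except where fewer genes or samples entered, the cause was not tested. In the edgeR tests, doubled minimums for both comparisons with conventional CD4 T cells, other dividing rules in macrophages and monocytes, the Krt8 limit for regulatory T cells and leaving out 1 of 2 samples gave no value.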
